A study of Drosophila melanogaster with 6 samples.

Results

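The genes described here are the long autosomal genes of Drosophila S2 cells, defined as listed genes that span 20 kb or more from annotated start to annotated end. They were chosen by length and chromosome alone, taking each transcript once from the deposited sheets and leaving out entries labelled chromosome X or 4. Heterochromatic and unplaced scaffolds were kept, so a few shorter entries on X heterochromatin count as autosomal here. The rule gave 207 genes among 5528 listed transcripts, against 4325 shorter autosomal entries. Their median length was 32.0 kb, against 2.35 kb for the shorter autosomal genes. Of the 207, 46 spanned 50 kb or more and 5 spanned 100 kb or more, the longest being Snap25, which encodes a synaptic SNARE protein, at 225.0 kb. The arms 2L, 2R, 3L and 3R carried 44, 36, 54 and 64 of them, and 9 lay on unplaced or heterochromatic scaffolds. Of those 9, 2 lay on unplaced sequence, so their chromosome is not known here.

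Nascent transcription was measured by PRO-seq, which labels and sequences the 3' end of RNA held by transcribing RNA polymerase II (Pol II). The cells were S2 cells, a cultured line from late embryos with hemocyte features. Cells were treated with double-stranded RNA against BEAF, an insulator protein that binds near promoters, against polybromo (Pbro), a subunit that marks the PBAP form of the Brahma chromatin remodeler, or against bacterial LacZ. The double-stranded RNAs were 668, 493 and 835 bp long for BEAF, Pbro and LacZ. Per the study's methods, 150 µg was added at the start and again after 2.5 days. Cells of all groups were harvested another 2.5 days later. No other allele or agent distinguished the groups, each had 2 biological replicates, and the same LacZ RNAi libraries served both knockdowns. All cells came from 1 line, and both proteins were depleted by a single double-stranded RNA sequence each.

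In Drosophila, Pol II commonly pauses a short distance past the start of a gene before it is released into the body. A promoter reading is therefore dominated by paused Pol II, whereas a gene body reading follows the Pol II that travels through the gene. Long fly genes owe their size mostly to introns, and many encode transcription factors, receptors and adhesion molecules used in particular tissues. PBAP is a nucleosome remodeler that helps to keep promoters open, in part at genes bound by GAGA factor, while BEAF is found mostly at promoters of housekeeping genes.

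The values are the log2 ratios of each knockdown to LacZ RNAi that the authors deposited, for a promoter window and for the gene body, which gave 4 comparisons. Down and up calls have an adjusted p under 0.05, and genes listed as unchanged have one over 0.9. Genes with an adjusted p from 0.05 to 0.9 are missing from the sheets used here, so every share is a share of listed genes unless another denominator is named. Values for single libraries, reads per gene and standard errors were not used here. The adjusted p is given as the basis of each call and does not measure the precision of a fold change. That precision is not known here, and the transcription level of a gene cannot be read. Longer bodies hold more positions at which Pol II can be counted, and the part of reads per gene in the shares by length was not tested. Of 13 hemocyte markers, Pxn was the 1 long autosomal gene, and since the sheets give no levels, the cell type could not be checked by its markers.

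Pbro RNAi lowered Pol II at many long autosomal genes, at promoters and in bodies. In the promoter 29 of 102 listed long genes fell (28.4%), against 269 of 2005 shorter autosomal genes (13.4%) and 13.2% of all listed genes. In the body 38 of 138 fell (27.5%), against 160 of 3217 shorter genes (4.97%) and 5.45% of all listed genes. Increases were fewer. Promoters of 5 long genes rose (4.90%), against 1.65% of shorter genes and 1.87% of all listed genes. Bodies of 5 rose (3.62%), against 1.03% of shorter genes and 1.09% of all listed genes. The shares up rest on 5 genes each. The promoter share was 1.96% at an adjusted p under 0.01, and the body share 1.45% for changes of at least 1.5-fold. A wider denominator was all genes of a length group found in any of the 12 sheets, listed in the comparison at hand or not. On it, 14.0% of long and 6.22% of shorter genes were down in the promoter. In the body, 18.4% of long and 3.70% of shorter genes were down. Genes listed in no comparison are absent from this denominator too. These shares are descriptions, since genes of 1 set of libraries are not replicates of a treatment.

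The share of bodies called down after Pbro RNAi was higher in each longer class up to 20 to 30 kb, and no higher in the classes beyond. It was 2.38% under 2 kb, 4.92% from 2 to 5 kb, 9.56% from 5 to 10 kb and 16.9% from 10 to 20 kb. Among the long genes it was 29.5% from 20 to 30 kb, 27.3% from 30 to 50 kb and 24.2% from 50 kb. The promoter shares were 8.77%, 12.9%, 19.3% and 30.9% in the 4 classes under 20 kb, and 19.6%, 40.0% and 33.3% in the 3 classes above it. The promoter share of genes of 10 to 20 kb thus lay within the range of the long classes.

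**Figure D1:**
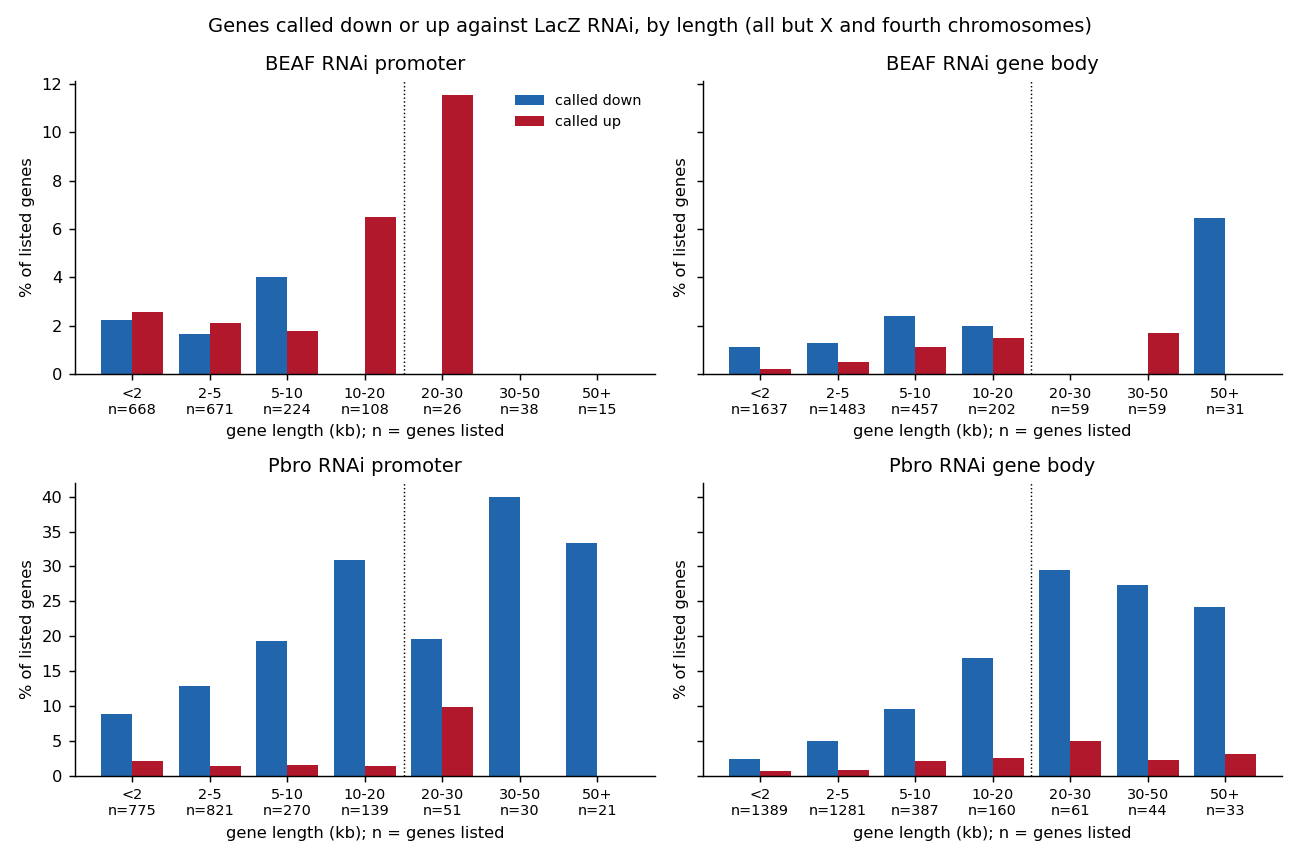
Percent of listed genes called down (blue) or up (red) against LacZ RNAi in each of the 4 comparisons, by gene length in kb on the horizontal axis, with the number of genes listed under each class. The dotted line marks 20 kb, and in the Pbro RNAi gene body panel the down share is 16.9% from 10 to 20 kb and 29.5% from 20 to 30 kb. The vertical scales of the upper and lower panels differ.

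The called decreases in long genes had medians close to those in shorter ones. Long promoters that fell after Pbro RNAi had a median of -1.30, against -1.26 for shorter genes. Of these promoters, 22 of 29 fell at least 2-fold (75.9%), against 73.2% of shorter and 72.6% of all promoters called down. Long bodies that fell had a median of -0.81, against -0.84 for shorter genes. Of these long bodies, 8 of 38 fell at least 2-fold (21.1%), against 35% of shorter and 32% of all bodies called down. Those 8 were the genes pros, betaTub97EF, LpR2, Eip63F-1, SKIP, dpr3, dnr1 and KCNQ. The smallest decrease called was -0.56 in the promoter, at LpR2, and -0.24 in the body, at the translation factor gene eIF5B. Promoter and body calls therefore do not reach down to the same size of change. Over all listed long genes the median was -0.07 for the promoter and -0.05 for the body, against -0.01 and 0.01 for shorter genes. Genes listed as unchanged lie near 0 by the way they were listed, so these medians say nothing of the long genes that are not listed.

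**Figure D2:**
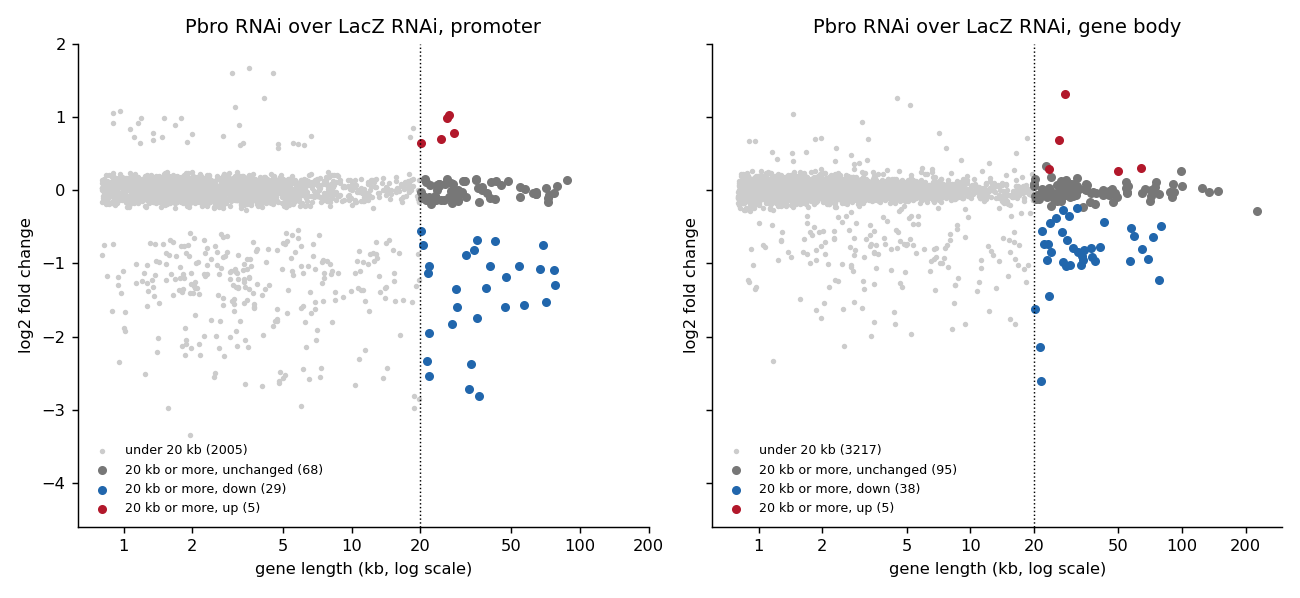
Log2 fold change of Pbro RNAi over LacZ RNAi against gene length on a log axis in kb, for promoters (left) and gene bodies (right); grey dots are autosomal genes under 20 kb and larger points are the long genes by class. The blue points of long genes called down lie in the same range of fold change as shorter genes, with medians of -1.30 for the promoter and -0.81 for the body, and the empty bands around the grey cloud are genes between the listing limits.

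After Pbro RNAi 9 long genes fell in both regions. They were 15% of 60 long genes listed in both, against 51 of 1418 shorter genes (3.6%) and 3.48% of all genes so listed. The beta-tubulin gene betaTub97EF (3R, 23792730 to 23814104 in the dm3 build) had the lowest adjusted p of any long gene. It stood at -2.33 for the promoter (adjusted p = 1.79e-25) and -2.14 for the body (adjusted p = 2.15e-47). KCNQ (2R, 6046535 to 6079899), which encodes a voltage-gated potassium channel, stood at -2.38 for the promoter (adjusted p = 5.29e-17) and -1.02 for the body (adjusted p = 0.00138). SKIP (3R, 17959561 to 18037267), one of the longest at 77.7 kb, stood at -1.30 and -1.22. Ser (3R, 22997818 to 23019713), which encodes the Notch ligand Serrate, stood at -1.96 for the promoter and -0.56 for the body.

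The other members of this group of 9 were Pxn, wat, CG45263, sm and LpR2. Pxn, which encodes the matrix enzyme peroxidasin, stood at -1.34 for the promoter and -0.68 for the body. The fatty acyl-CoA reductase gene wat (CG1443 in the sheets) stood at -1.83 and -0.98, and CG45263 (listed as PQBP-1) at -1.57 and -0.96. The RNA-binding protein gene sm fell by nearly the same amount in both, at -0.81 for the promoter and -0.82 for the body. LpR2, which encodes a lipophorin receptor, fell more in the body, at -1.62 (adjusted p = 2.1e-23), than in the promoter, at -0.56 (adjusted p = 0.0459). The promoter value was the lower one in 7 of the 9, all but sm and LpR2, and the median difference of promoter minus body was -0.61. Among the 51 shorter autosomal genes down in both, the promoter was lower in 41 and the median difference was -0.37. Both regions come from the same libraries, and each may have been scaled by itself.

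In another 10 long genes the body fell after Pbro RNAi while the promoter was listed as unchanged. They were 16.7% of the 60 long genes listed in both regions, against 23 of 1418 shorter autosomal genes (1.62%) and 2.08% of all genes listed in both. The regeneration gene rgn (3L, 21375603 to 21399646) showed the widest gap, with -0.84 in the body (adjusted p = 5.63e-10) and 0.09 in the promoter (adjusted p = 0.949). The Tec-family kinase gene Btk (Btk29A in the sheets) stood at -0.73 in the body and -0.07 in the promoter. Mmp2, which encodes a matrix metalloproteinase, stood at -0.64 and -0.16. CG10011 stood at -0.58 in the body (adjusted p = 9.64e-09) and -0.01 in the promoter. The guanine nucleotide exchange factor gene GEFmeso (CG30115 in the sheets) stood at -0.51 in the body (adjusted p = 6.47e-11) and 0.02 in the promoter. All of these body decreases were below 2-fold.

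The remaining genes with this pattern were tai, CG46385, CG32982, Hs6st and ssp3, with body values from -0.49 to -0.27. The longest of them was tai (2L, 9166780 to 9246386), which encodes a coactivator of the ecdysone receptor, at -0.49 in the body and 0.05 in the promoter. Hs6st, which encodes a heparan sulfate 6-O-sulfotransferase, stood at -0.35 in the body and -0.06 in the promoter. The promoter values of these 10 genes ran from -0.17, at ssp3, to 0.09, at rgn, and no long promoter was listed as unchanged below -0.19. The smallest promoter decrease called, -0.56, was larger than the body decreases of GEFmeso and of these last 5 genes.

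The converse pattern, with the promoter down and the body listed as unchanged, was found at 3 long genes. They were 5% of the 60, against 23 of the 1418 shorter genes (1.62%) and 1.97% of all genes listed in both. The secreted matrix protein gene mspo (2R, 10565788 to 10601125) stood at -1.74 for the promoter (adjusted p = 1.35e-05) and 0.01 for the body (adjusted p = 0.998). CG31176 stood at -1.18 and -0.16, and dpr6, which encodes an immunoglobulin-domain surface protein, at -1.07 and 0.02. In all, 60 long genes were listed in both regions after Pbro RNAi. Of these, 33 were unchanged in both, against 1292 of 1418 shorter genes. The median of promoter minus body was 0.00 (quartiles -0.12 and 0.15) for the 60 long genes, against -0.01 for the 1418 shorter genes. Of the 58 long genes down in either region, 65.5% had a body call, against 42.3% of 378 shorter genes. Among all listed transcripts 332 promoters and 225 bodies were down, and 62 genes were down in both. The smallest decreases called in long genes were -0.56 for promoters and -0.24 for bodies, so the 2 regions were not called on like terms. The other region was often not listed, for 19 of the long genes down in the body and 17 of those down in the promoter.

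**Figure D3:**
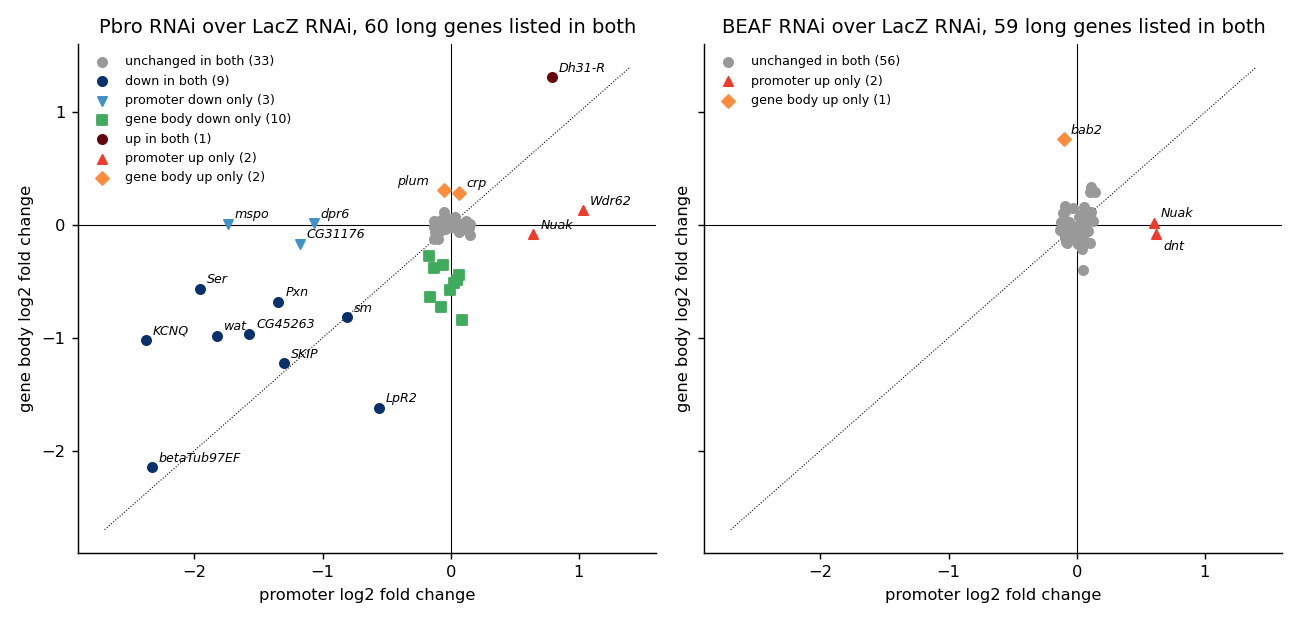
Promoter (horizontal) against gene body (vertical) log2 fold change over LacZ RNAi for long genes listed in both regions, 60 after Pbro RNAi (left) and 59 after BEAF RNAi (right), with colours and shapes for the calls and a dotted line where the regions are equal. After Pbro RNAi 9 genes are down in both regions, 10 in the body with the promoter unchanged and 3 in the promoter with the body unchanged, while after BEAF RNAi 56 of 59 are unchanged in both.

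**Figure D4:**
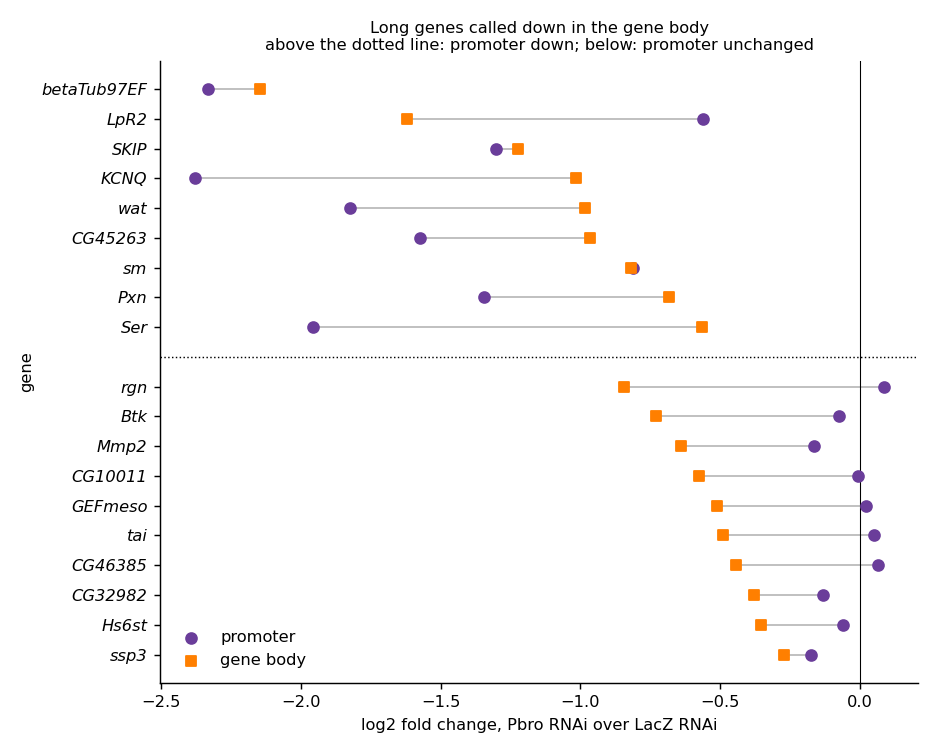
Promoter (purple circles) and gene body (orange squares) log2 fold changes of Pbro RNAi over LacZ RNAi for the 19 long genes whose body was called down and whose promoter was listed. Above the dotted line the promoter was called down too, with betaTub97EF at -2.33 and -2.14; below it the promoter was listed as unchanged, with rgn at 0.09 for the promoter and -0.84 for the body.

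Gene lists by role are given as counts, to be read against the shares down after Pbro RNAi of 28.4% of long promoters and 27.5% of long bodies, and of 13.2% and 5.45% of all listed genes. Among 13 long genes of developmental transcription factors, 4 of 10 listed bodies fell, those of pros, Ubx, bab1 and tai, and 1 of 6 listed promoters, that of tup. None of them rose, and these counts lie near the shares of all long genes. The body of pros (3R, 7197709 to 7219326), a homeodomain factor of neural and other lineages, stood at -2.60 (adjusted p = 2.08e-18), the lowest body value among the long genes. Ubx, the Hox gene of the third thoracic segment, stood at -0.93 in the body (adjusted p = 0.00306). bab1, which encodes a BTB-domain factor, stood at -0.81 in the body (adjusted p = 5.71e-06). The promoter of tup, which encodes a LIM-homeodomain factor, stood at -2.54 (adjusted p = 2.69e-13). The bodies of foxo, pnt and Mef2, factors of insulin, EGF receptor and muscle programs, were listed as unchanged at 0.04, -0.06 and -0.02.

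Genes of the cell surface and matrix were the next group. Among 9 adhesion and matrix genes, 3 of 6 listed promoters fell, those of Fas3, Pxn and mspo, and 3 of 6 listed bodies, those of dlp, Mmp2 and Pxn, beside 28.4% and 27.5% of all long genes and 13.2% and 5.45% of all listed genes. The difference of this list from the other long genes was not tested. The adhesion molecule gene Fas3 stood at -1.34 in the promoter (adjusted p = 0.000141), and the glypican gene dlp at -0.97 in the body (adjusted p = 9.64e-09). The syndecan gene Sdc was unchanged at 0.15 for the promoter and -0.03 for the body, and the teneurin gene Ten-m at -0.04 in the promoter. Outside that list, and chosen for their low adjusted p, AdamTS-A and Cda5 fell in the body. The metalloprotease gene AdamTS-A (3R, 11267965 to 11301927, listed as CG14869) stood at -0.96 (adjusted p = 8.65e-18), and Cda5, of the chitin deacetylase family, at -0.90 (adjusted p = 7.07e-10).

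Of 6 axon guidance genes, 2 fell in the promoter. Sema2b (2R, 12274029 to 12306753, listed as CG33960), which encodes a secreted semaphorin, stood at -2.72 (adjusted p = 4.1e-21), and beat-IIIc, of the Beaten path family, at -1.52 (adjusted p = 0.000225). They were 2 of 5 listed promoters in this group, and the other 3, robo2 (lea in the sheets), Dscam1 and fz, were unchanged at -0.11, -0.03 and 0.05. The lowest promoter value of any long gene was that of CG42673 (3L, 9540322 to 9576481, listed as CG32048), at -2.81 (adjusted p = 8.62e-20). The immunoglobulin-family gene dpr3 fell in the body, at -1.03 (adjusted p = 0.00195).

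Ligand and receptor genes were called in either region. The FGF ligand gene ths stood at -1.13 in the promoter (adjusted p = 0.0393), and Pvf3, a ligand of the PDGF and VEGF receptor family, at -0.95 in the body (adjusted p = 2.57e-07). sNPF-R (NPFR76F in the sheets), which encodes a neuropeptide receptor, stood at -1.60 in the promoter (adjusted p = 1.64e-06). Among 9 long genes of Wnt, Hedgehog, BMP and Notch signalling, Ser was the 1 called, of 4 listed in each region. The other Notch ligand gene, Dl, was unchanged in the promoter at -0.11, and the Frizzled receptor gene fz2 at -0.02. The adenylyl cyclase gene Ac78C stood at -0.68 in the promoter (adjusted p = 0.0486).

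RNA-binding, cytoskeletal and hormone-response genes had 2 or 3 calls each after Pbro RNAi. Of 8 long RNA-binding protein genes, sm fell as given above and the splicing regulator gene Rbfox1 (CG32062 in the sheets) stood at -0.43 in the body (adjusted p = 0.000139), 2 of 5 listed bodies, and sm was 1 of 4 listed promoters. The nesprin gene Msp300 stood at -0.78 in the body (adjusted p = 0.00316), 1 of 4 listed bodies among 10 cytoskeletal genes, and Abl, given with the increases, was 1 of 4 listed promoters. The ETS factor gene Eip74EF, an early ecdysone target, stood at -0.70 in the promoter (adjusted p = 0.0132). Of 5 hormone-response genes it was 1 of 3 listed promoters, and of 3 listed bodies tai fell and Eip93F rose. The lists hold few listed genes, and their difference from the other long genes was not tested. The body of the calcium-binding protein gene Eip63F-1 stood at -1.45 (adjusted p = 0.000127). Further bodies that fell with a low adjusted p were those of CG34347 at -0.62 (adjusted p = 5.84e-13) and of CG30015 at -0.79 (adjusted p = 9.64e-09). The lists hold 72 of the 207 long genes, and 44 of the 71 long genes called in any comparison stand in none of them.

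After Pbro RNAi 9 long genes rose, and 1 did so in both regions. That gene was Dh31-R (Dh31-R1 in the sheets; 2R, 9155302 to 9183429), which encodes the receptor of a diuretic hormone, at 0.79 for the promoter (adjusted p = 0.00412) and 1.31 for the body (adjusted p = 0.000269). Promoters rose at the mitotic spindle gene Wdr62 (1.03, adjusted p = 0.0411), the tyrosine kinase gene Abl (0.99, adjusted p = 0.0282), dnt (0.70) and Nuak (0.65). The bodies of Wdr62 and Nuak were unchanged at 0.13 and -0.08. Bodies rose at the ecdysone-response factor gene Eip93F (0.68, adjusted p = 0.00767), at plum (0.31), at the bHLH factor gene crp (0.29) and at the kinase gene Dyrk2 (0.26). The promoters of plum and crp were unchanged at -0.05 and 0.06.

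Other long genes were listed as unchanged. Among 8 long genes of chromatin regulators none was called in any comparison, with 6 promoters and 7 bodies listed as unchanged after Pbro RNAi. Beside 13.2% and 5.45% of all listed genes down, few or no calls in a list of this size carry no information about the group. The body of osa, which encodes the subunit that marks the BAP form of the Brahma remodeler, stood at -0.08 after Pbro RNAi and -0.06 after BEAF RNAi. The cohesin loader gene Nipped-B and the coactivator gene Nipped-A were unchanged in all 4 comparisons, and their bodies stood at -0.03 and -0.01 after Pbro RNAi. In all, 22 long genes were listed in every comparison and 14 of them were unchanged throughout, foxo, pnt, msi, Sdc and the filamin gene cher among them. Of shorter autosomal genes so listed, 617 of 684 were unchanged throughout, and of all transcripts so listed, 782 of 866. None of the 5 genes of 100 kb or more was called, and none of them had a listed promoter. Snap25 stood at -0.28 in the body after Pbro RNAi and the G protein-coupled receptor kinase gene Gprk1 at -0.01. The longest gene called in any comparison was tai, at 79.6 kb.

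BEAF RNAi was followed by few calls at long genes. In the promoter none of 79 listed long genes fell (0%), against 35 of 1671 shorter genes (2.09%) and 2.2% of all listed genes, and 3 rose (3.80%), against 2.51% of shorter genes and 2.67% of all listed genes. In the body 2 of 149 fell (1.34%), against 1.38% of shorter genes and 1.33% of all listed genes, and 1 rose (0.671%), against 0.476% of shorter genes and 0.416% of all listed genes. These shares rest on 0 to 3 genes and were near those of all listed genes. From 10 to 20 kb, none of 108 listed promoters fell either, and 7 rose (6.48%). The median over listed long genes was 0.02 for the promoter and -0.03 for the body, against 0.00 and 0.01 for shorter genes.

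The promoters that rose after BEAF RNAi were those of ab, dnt and Nuak. The BTB zinc finger gene ab (2L, 11210681 to 11234685) stood at 0.69 (adjusted p = 0.0062). dnt (2L, 19338676 to 19363224), which encodes a receptor of the Derailed family of Wnt receptors, stood at 0.62 (adjusted p = 0.0432), with its body unchanged at -0.08. The kinase gene Nuak (CG11870 in the sheets; 3R, 6090035 to 6110162) stood at 0.60 (adjusted p = 0.0468), with its body unchanged at 0.02. The body of bab2 (3L, 1140449 to 1177274) rose by 0.76 (adjusted p = 2.83e-07) while its promoter was unchanged at -0.10. The bodies that fell were those of nAChRalpha4 (nAcRalpha-80B in the sheets; 3L, 23199703 to 23277304), a nicotinic acetylcholine receptor subunit, at -0.83 (adjusted p = 4.74e-09), and of the titin-like muscle gene sls, at -0.43 (adjusted p = 0.0283). Over 59 long genes listed in both regions the median of promoter minus body was -0.01 (quartiles -0.08 and 0.09), against -0.03 for 1428 shorter genes. Both regions were unchanged in 56 of the 59, against 1360 of the 1428.

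Set side by side, the knockdowns met at 2 long genes, dnt and Nuak, whose promoters rose in both. Their values after BEAF and Pbro RNAi were 0.62 and 0.70 for dnt, and 0.60 and 0.65 for Nuak, and the comparisons share their LacZ RNAi libraries. Beside these 2 of 207 long genes, 33 of 4325 shorter autosomal genes and 38 of 5528 listed transcripts were called in both knockdowns. No long gene was called opposite ways. Among shorter genes, 8 promoters and 3 bodies fell after Pbro RNAi and rose after BEAF RNAi. Of the 38 long bodies down after Pbro RNAi, 23 were listed as unchanged after BEAF RNAi, with a median of 0.02, and 15 were not listed there. Of 160 shorter bodies down after Pbro RNAi, 14 were down, 3 up and 93 unchanged after BEAF RNAi, and 50 were not listed. Of the 29 long promoters down after Pbro RNAi, 13 were listed as unchanged after BEAF RNAi, with a median of 0.06. Of 269 shorter promoters down after Pbro RNAi, 3 were down, 8 up and 106 unchanged after BEAF RNAi. Whether long and shorter genes differ in this overlap was not tested. nAChRalpha4, sls and bab2, which changed in the body after BEAF RNAi, were unchanged in the body after Pbro RNAi, at -0.06, 0.11 and -0.16. In all, 71 of the 207 long genes were called in some comparison, 67 after Pbro RNAi and 6 after BEAF RNAi (34.3%, 32.4% and 2.90%). Among 4325 shorter autosomal genes 544 were called (12.6%), and among all 5528 listed transcripts 720 were called, 580 after Pbro RNAi and 178 after BEAF RNAi (13.0%, 10.5% and 3.22%).

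The 20 kb limit divides a continuous range of lengths. Just above it, fng (20016 bp), cher (20099 bp) and CG42750 (20105 bp) had no call. Just below it, alpha-Man-IIb (19867 bp) was unchanged, the homeodomain gene Dll (19782 bp) stood at -2.86 in the promoter after Pbro RNAi, and rau (19734 bp) at -1.22 there and at 0.59 in the promoter after BEAF RNAi. The decreases after Pbro RNAi were spread over the large arms, with 8, 8, 9 and 13 bodies down on 2L, 2R, 3L and 3R, of 26, 24, 32 and 47 listed.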

How the data were processed

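S2 cells were profiled by PRO-seq after BEAF, Pbro or LacZ RNAi, with 2 libraries per treatment, grouped by the sample labels. Per the study's methods, trimmed reads were aligned to dm3 with Bowtie, nonoverlapping genes were counted in the read-richest window near the start and in the gene body, and the authors compared each knockdown with LacZ RNAi using DESeq2 (versions are not given in the sources used here). The deposited log2 fold changes and the deposited adjusted p-values, at a false discovery rate of 5%, are those the authors computed, and they were used as they stand, since the 12 sheets give no values per library. Whether promoter and body were scaled together is not stated, and a change common to all genes would be removed by scaling. The choice of the richest window means that a moved pause site can appear as a change in level. The methods call the libraries of a treatment biological replicates and do not say whether they were treated on separate days. Depth per library was not used here.

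The sheets were joined by transcript (python 3.11.15, pandas 2.3.3, scipy 1.17.1). Down and up were checked to hold adjusted p under 0.05 and unchanged over 0.9. Length is end minus start plus 1 in dm3. Names come from a RefSeq table of the Release 6 assembly, which matched all 207 long genes and changed 55 symbols. The sheets' symbol is given above for many of the named genes where it differs. Others include Dyrk2 (smi35A in the sheets), plum (CG6490), Wdr62 (CG7337), CG46385 (CG30497), CG42750 (CG42400) and Msp300 (Msp-300). Dl is the sheets' symbol for Delta. Members, lists and rules were chosen with earlier results of these data known. Named genes are those called in both regions, in the same region of both knockdowns or in opposite ways, the 8 with the lowest adjusted p per direction and comparison, the longest, up to 4 called per list, those at the 20 kb limit and up to 6 per direction called in 1 region and unchanged in the other, and the text gives a selection. Unchanged members of a list are named for comparison and were chosen after their values were seen. Counts, shares and medians are descriptions, and no new test was made. A count, a median and the exact binomial interval were checked on simulated data, and the joining of the sheets was not. No genome was used, so promoter sequences and motifs were not analysed here. Other length limits, denominators and fold minimums were tried.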

Additional observations from a re-analysis of the deposited data

How the results depend on the processing

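The 8 shares of long genes called and the 2 medians of promoter minus body were recomputed under up to 9 other settings, 1 change at a time, which gave 82 values. Of these, 64 stayed within 1.5 times the share given above and within its exact 95% binomial interval (for a median, its 95% interval), and 18 did not. The restriction to 2L, 2R, 3L and 3R was chosen after seeing the data and moved none of them. The widest denominator was all 207 long genes, each listed in at least 1 comparison. After Pbro RNAi it gave 14.0% of promoters and 18.4% of bodies down, in place of 28.4% and 27.5%. Promoters up were 2.42% on it, in place of 4.90%. Promoters up after Pbro RNAi were 1.96% at an adjusted p under 0.01 and 0% with a length limit of 30000 bp, and bodies up were 1.45%, in place of 3.62%, with changes under 1.5-fold left out. The BEAF RNAi shares rest on 0 to 3 genes and moved most often. Promoters up, 3.80% above, were 5.79% at 15000 bp, 0% at 30000 bp, 1.27% at an adjusted p under 0.01 and 1.45% of all long genes. Promoters down, 0% above, were 1.03% with chromosomes X and 4 included. Bodies down, 1.34% above, were 0.893% at 15000 bp, 2.22% at 30000 bp, 0.671% at an adjusted p under 0.01 or with the 1.5-fold minimum, and 0% of genes listed in both regions, since neither nAChRalpha4 nor sls had a listed promoter. Bodies up, 0.671% above, were 1.11% at 30000 bp and 1.69% of genes listed in both regions. No paired analysis was possible because the sheets hold 1 fold change per gene and comparison and no values per library, and leaving out a replicate could not be run for the same reason. Reads per gene, which set how small a change can be called, were not used here. Genes between the listing limits are missing from the shares of listed genes, and those listed in no comparison are missing from every share.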

Other observations

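Long bodies listed as unchanged lay more often below 0 than shorter ones, by small amounts. After Pbro RNAi 56 of 95 (58.9%) were below 0, against 42.5% of shorter autosomal bodies, and after BEAF RNAi 85 of 146 (58.2%), against 45.9%. The limit of 20 kb did not mark a step. From 10 to 20 kb, 20 to 30 kb, 30 to 50 kb and 50 kb, the shares were 54.3%, 62.5%, 58.1% and 54.2% after Pbro RNAi. After BEAF RNAi they were 50.3%, 47.5%, 69.0% and 58.6%. The comparisons share their LacZ RNAi libraries, and the difference was not tested.

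The 9 long genes on unplaced or heterochromatic scaffolds had no call in any comparison. Of all long genes 34.3% were called in some comparison, and of all listed transcripts 13%. The group is small, and its difference from the other long genes was not tested. One of them, the mitotic kinase gene Haspin, was listed in all 4, with body values of 0.01 after Pbro RNAi and 0.00 after BEAF RNAi.

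Long genes sometimes lay next to each other, with 26 pairs closer than 50 kb. In 14 pairs both bodies were listed after Pbro RNAi. Both fell in 1 pair, CG32982 (-0.38) and tai (-0.49), which lie 15.7 kb apart on the same strand of 2L. In 4 pairs 1 body fell and the other was unchanged, and in 9 both were unchanged. One mixed pair was that of the related genes bab1 and bab2, 39.3 kb apart, at -0.81 and -0.16 after Pbro RNAi, and at 0.24 (unchanged) and 0.76 (up) after BEAF RNAi. Another was wat, at -0.98, and Bicra (CG11873 in the sheets), at 0.00, which lie 43.9 kb apart on opposite strands of 3R.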
